A study of Homo sapiens with 6 samples.

Results

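The genes described here encode the ligands and receptors of the axon guidance families: Eph receptors and ephrins, semaphorins with their plexin and neuropilin receptors, SLIT ligands with ROBO receptors, and netrins with UNC5 receptors. They were chosen by gene symbol, but with earlier results of these data known. The choice, and comparisons of these genes with all tested genes, may therefore not be independent of the measured values. Of the 61155 symbols counted, 68 belong to these families. They comprise 14 Eph receptors, 8 ephrins, 20 semaphorins, 9 plexins, 2 neuropilins, 3 SLITs, 4 ROBOs, 4 netrins and 4 UNC5 receptors. RNA was sequenced from MDA-MB-231, a mesenchymal, invasive human breast cancer cell line, to examine the effect of lowering VASP, an Ena/VASP protein that helps actin filaments lengthen at the front of moving cells. There were 3 shVASP libraries and 3 control (plko) libraries, all from cells harvested 48 hours after transfection and grown in the same medium with serum and insulin. The titles name shVASP and plko, but other labels name a VASP siRNA and a negative control siRNA given by transient transfection; which reagent was used cannot be told from them, and no further reagent against VASP is named. The labels do not say that libraries within a group are separate cultures, so each p-value reflects library spread that may be purely technical.

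Guidance molecules steer growing axons, and the same molecules steer migrating cells, vessels and tumour cells. Ephrins are held on the cell surface, by a lipid anchor in the A class and a transmembrane segment in the B class, and signal to Eph receptor tyrosine kinases on the neighbouring cell. Semaphorins act on plexins, which carry the signal into the cell; most secreted class 3 semaphorins reach plexins through neuropilins, SLITs bind ROBO receptors, and netrins bind DCC, neogenin and UNC5 receptors. Proteins of the Ena/VASP family lie downstream of ROBO and netrin receptors at the actin cytoskeleton.

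Library totals ran from 28856610 to 30055503 counts. In CPM, counts scaled to library size by TMM, VASP was at 12.9, 12.8 and 12.3 in the shVASP libraries, against 156, 174 and 163 in the control libraries, 12.9-fold lower by the edgeR quasi-likelihood test (log2 fold change -3.69, adjusted p = 8.32e-24, SE 0.06). Markers of the mesenchymal state of the line summed to 4410 to 4470 CPM in shVASP and 4466 to 4535 CPM in control libraries, although SPARC, listed among them, was low. Leukocyte, endothelial, neuron and fibroblast markers each summed to at most 8.12 CPM in any library. Of the glial markers MBP alone was abundant, and the fibroblast genes DCN and LUM and the neuronal gene STMN2 were at 0 in every library. Across all tested genes, fold changes followed the GC content of the transcript: the median log2 fold change was 0.16 in the quintile of genes with the lowest GC content and -0.19 in the quintile with the highest. Guidance genes are rich in GC, with a median of 58.1% among those tested against 48.6% among all tested genes. The changes called below are therefore also given with transcript GC content and merged exon length corrected for. Under this correction the medians of the quintiles lay between -0.0017 and 0.054.

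Most guidance families were expressed, and those of them that changed mostly fell with VASP. Of the 68 members, 54 had enough counts to be tested, and 27 of these (50%) changed at an adjusted p under 0.05, against 37.2% of the 16633 genes tested. Only 4 rose (7.41%, against 18.9% of all tested genes), and 23 fell (42.6%, against 18.3%). The median log2 fold change of the tested members was -0.13, beside -0.0077 over all tested genes. After the GC correction 8 members rose (14.8%, against 17.7% of all genes with a GC value) and 17 fell (31.5%, against 12.1%), 20 of the 27 keeping their call, and the median was -0.029 beside 0.027 over all genes. The shVASP and control libraries did not overlap in CPM for 26 of the 54 members (48.1%), a share close to the 47.6% of all tested genes. In bulk RNA, fewer cells that express a gene and less RNA per cell cannot be told apart.

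**Figure D1:**
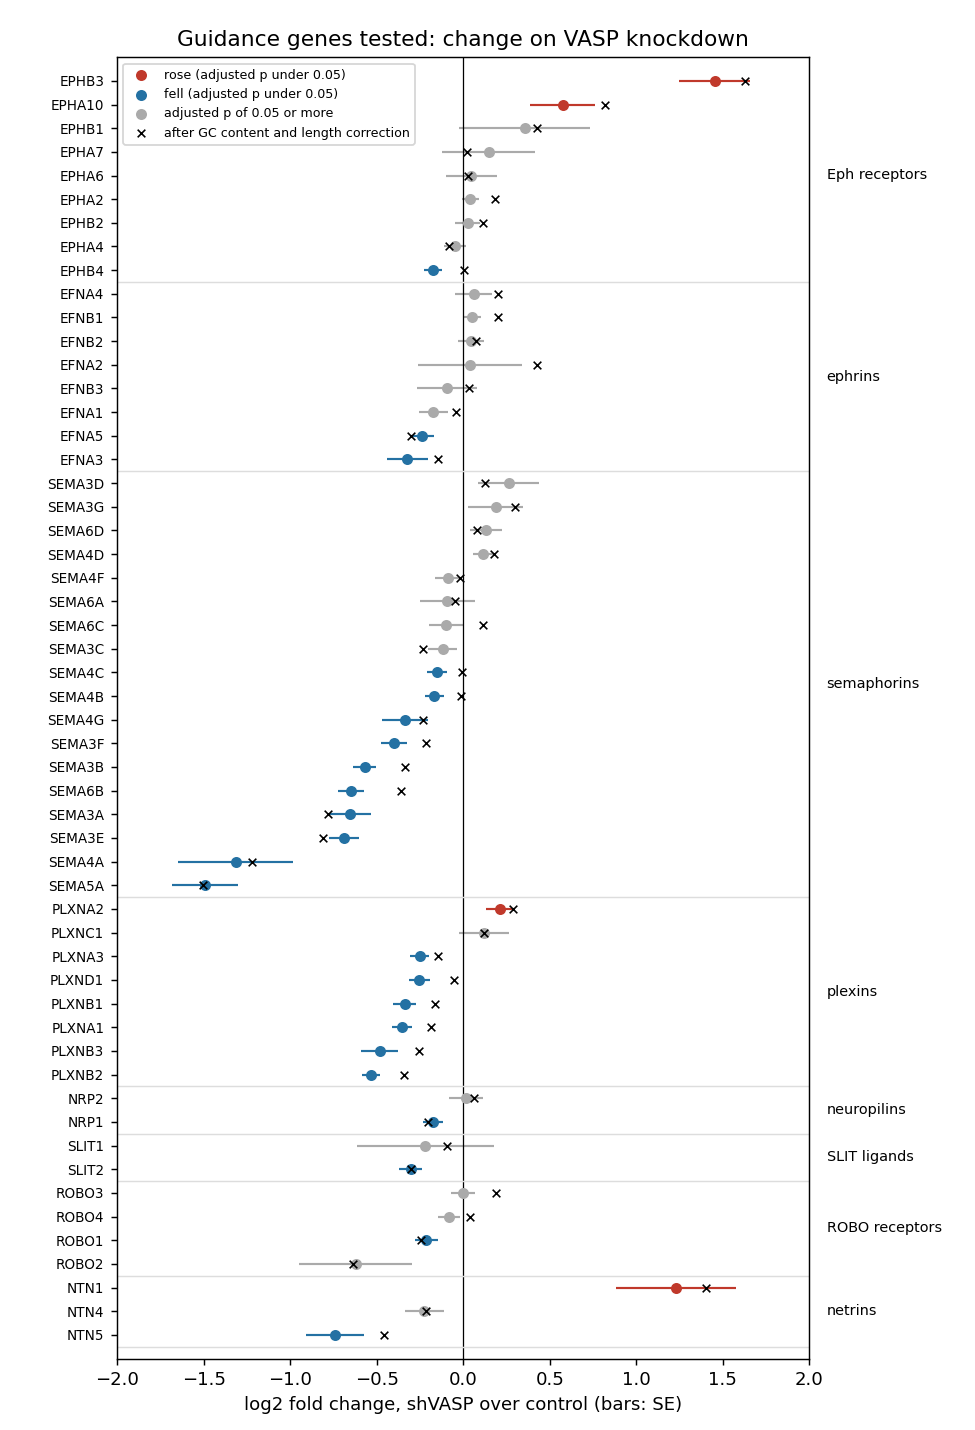
Log2 fold change of shVASP over control (x axis) for the 54 tested guidance genes, grouped by family; points are edgeR estimates, bars their SE, colours the call, and crosses the estimate after GC content and length correction. Semaphorins and plexins lie mostly left of 0, while EPHB3 and NTN1 stand farthest to the right at 1.45 and 1.23.

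Before the GC correction, the semaphorins and plexins lost the most in summed level. Summed per length, semaphorins stood at 54.1, 52.7 and 48.1 RPKM (CPM divided by the merged exon length in kilobases) in shVASP libraries, against 68.0, 68.0 and 61.3 RPKM in control libraries, a log2 ratio of means of -0.35. Plexins summed to 64.8, 63.9 and 59.4 RPKM in shVASP libraries, against 83.9, 83.0 and 80.04 RPKM in control libraries, a log2 ratio of -0.39. In both families every shVASP library lay below every control library. The same held for the small SLIT sum, at 1.91, 1.77 and 1.83 RPKM in shVASP libraries, against 2.33, 2.19 and 2.26 RPKM in control libraries (log2 ratio -0.30). Netrins had a log2 ratio of -0.29, with overlapping libraries. Eph receptors summed to 121.3 ± 3.74 RPKM in shVASP and 119.1 ± 4.80 RPKM in control libraries, and ephrins to 37.9 ± 1.096 RPKM in shVASP and 39.2 ± 1.94 RPKM in control libraries (SD, n = 3 each), with overlapping libraries in both. These sums are descriptions without a test, and the most abundant member of a family can set its sum. They are not corrected for GC content, and the order of the families after correction was not computed. With the correction, the median log2 fold change of tested members went from -0.30 to -0.15 in plexins and from -0.16 to -0.13 in semaphorins. It went from -0.26 to -0.20 in SLITs and from -0.23 to -0.21 in netrins. The Eph receptor and semaphorin sums leave out any RNA of EPHA1, EPHB6 and SEMA7A that was not counted, as described below.

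**Figure D2:**
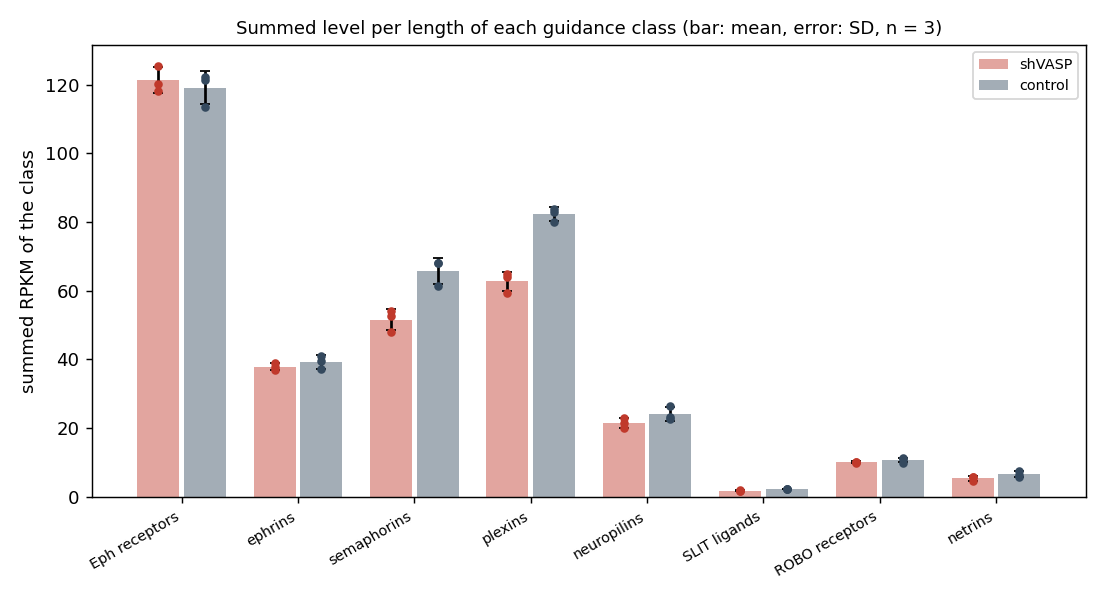
Summed level of each guidance family (RPKM, y axis, without GC correction) with bars for the mean, error bars for the SD and points for the 3 shVASP and 3 control libraries. The plexin and semaphorin sums of the shVASP libraries lie below those of all control libraries; the UNC5 receptors, near 0.1 RPKM, are not drawn.

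Within each family 1 or a few genes gave most of the RNA counted. The shares and ranks take EPHA1, EPHB6 and SEMA7A at their counts, which may not measure their expression, as described below. EPHA2, a receptor of the A class that is known to be abundant in aggressive breast cancer cells, averaged 105 RPKM over the 6 libraries and made up 87.5% of the Eph receptor sum. EPHB4, the receptor of ephrin-B2, followed at 9.16 RPKM and EPHA4 at 3.17 RPKM. PLXNB2 made up 53.7% of plexin RNA at 38.9 RPKM, ahead of PLXNA1 at 12.6 and PLXND1 at 7.56 RPKM. NRP1 gave 97.8% of neuropilin RNA, SLIT2 gave 97.9% of SLIT RNA and NTN4 gave 85.0% of netrin RNA. Among semaphorins SEMA6B, SEMA4B and SEMA3B shared the lead at 12.1, 11.7 and 11.5 RPKM over the 6 libraries. SEMA4B led in shVASP libraries, with 21.4% of semaphorin RNA against 18.2% for SEMA6B, and SEMA6B led in control libraries, with 22.5% against 18.8% for SEMA4B. Among ephrins EFNB1 led at 13.6 RPKM. ROBO4, known mainly from endothelium, was the leading ROBO receptor at 5.08 RPKM. In CPM it averaged 32.7 in shVASP and 34.6 in control libraries. The endothelial markers PECAM1, CDH5, VWF and TEK averaged 2.05, 0.134, 0.0448 and 0.0780 CPM in shVASP libraries. In control libraries they averaged 2.82, 0.138, 0.0918 and 0.103 CPM.

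**Figure D3:**
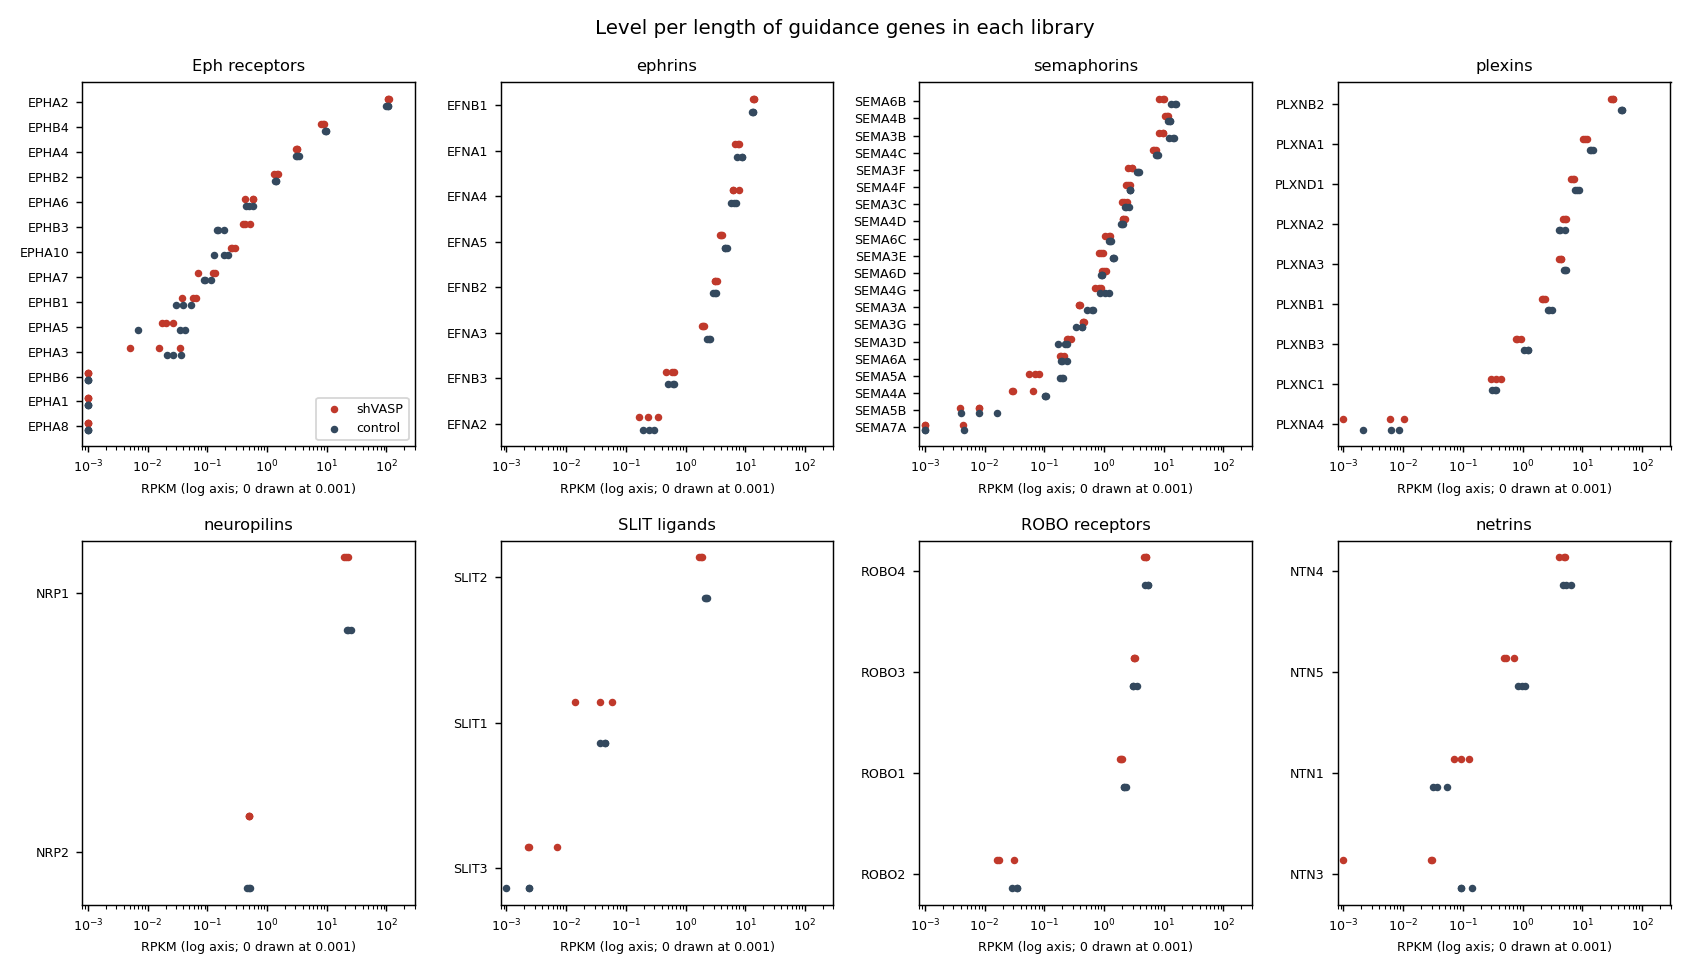
Level of each guidance gene on a log x axis (RPKM), by family, with a point for each of the 3 shVASP and 3 control libraries and values of 0 drawn at the left edge. Levels within most families differ widely, and EPHA2 at 105 RPKM and PLXNB2 at 38.9 RPKM stand highest; the UNC5 receptors, each under 0.06 RPKM on average, are not drawn.

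The sharpest falls among semaphorins and the sharpest rise among the receptors belonged to genes of low or moderate level. The RefSeq promoters (GRCh38.p14, 250 bases before to 50 after the start of the gene) of EPHB3, the tested member with the largest rise, of SEMA5A, the tested member with the largest fall, and of SEMA3E, the class 3 semaphorin with the largest fall, are printed as they stand for the ends of the range and differ widely in base composition. Capitals mark matches to CCAAT and GGGCGG on either strand (CCGCCC is GGGCGG on the other strand). The EPHB3 window (chr3:184561535-184561834, plus strand) is 69.0% GC with 1 CCAAT and 3 GGGCGG, where the CCAAT overlaps a CCGCCC. The SEMA5A window (chr5:9546026-9546325, minus strand) is 81.0% GC with 7 GGGCGG, some of which overlap, and the SEMA3E window (chr7:83649090-83649389, minus strand) is 47.3% GC with none of the motifs searched.
EPHB3: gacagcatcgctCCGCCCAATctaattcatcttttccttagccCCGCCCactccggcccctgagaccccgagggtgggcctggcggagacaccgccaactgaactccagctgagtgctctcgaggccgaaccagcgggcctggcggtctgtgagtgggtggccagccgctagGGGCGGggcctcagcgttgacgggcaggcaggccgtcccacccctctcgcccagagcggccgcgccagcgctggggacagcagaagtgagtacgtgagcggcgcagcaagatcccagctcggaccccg
SEMA5A: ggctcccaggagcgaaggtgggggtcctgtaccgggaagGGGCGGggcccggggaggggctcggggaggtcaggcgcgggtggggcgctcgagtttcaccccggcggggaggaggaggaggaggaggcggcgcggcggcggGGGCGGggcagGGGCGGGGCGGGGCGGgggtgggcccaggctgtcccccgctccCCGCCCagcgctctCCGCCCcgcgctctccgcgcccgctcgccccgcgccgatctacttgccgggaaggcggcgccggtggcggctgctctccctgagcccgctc
SEMA3E: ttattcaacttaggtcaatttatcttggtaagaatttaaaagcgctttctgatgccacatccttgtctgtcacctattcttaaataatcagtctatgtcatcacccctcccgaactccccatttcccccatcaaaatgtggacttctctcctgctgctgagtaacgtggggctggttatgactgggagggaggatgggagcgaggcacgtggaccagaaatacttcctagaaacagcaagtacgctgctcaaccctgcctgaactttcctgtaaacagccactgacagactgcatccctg
The search took both strands and looked for the TATA box as TATAAA. It further took the NF-Y word CCAAT and the Sp factor word GGGCGG. The AP-1 word TGANTCA was also taken, with the TEAD word GGAATG and, by name, the CArG box of serum response factor. Promoters were matched for 58 of the 68 members, 47 of them tested. GGGCGG was in 38 of the 47, in 16 of the 20 that fell and in 2 of the 2 that rose. It was in 64.6% of 15699 promoters of tested genes and 44.95% of all 35116 promoters. Guidance genes are rich in GC, and the comparison was not matched for GC content. CCAAT was in 16 of the 47, 6 of the 20 that fell and 1 of the 2 that rose, beside 34.5% of the promoters of tested genes and 34.6% of all promoters. TATAAA was in 1 of the 47 (6.38% of promoters of tested genes, 11.53% of all), TGANTCA in 1 (5.56% and 7.71%), GGAATG in 5 (11.52% and 14.03%) and the CArG box in 0 (1.12% and 1.29%). These matches describe letters in a window and not binding.

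Secreted class 3 semaphorins fell in 4 of 7 tested members and rose in none, and 5 fell after the GC correction; of all tested genes 18.3% fell before it and 12.1% after it. SEMA3E, a ligand that binds plexin-D1 directly without a neuropilin, was at 8.05, 7.002 and 7.49 CPM in shVASP libraries, against 12.2, 11.8 and 12.4 CPM in control libraries. All shVASP libraries lay well below all control libraries, 1.61-fold lower by the fit (log2 fold change -0.69, SE 0.09, edgeR adjusted p = 2.23e-06; -0.81 after the GC correction). SEMA3A, the ligand of neuropilin-1 and class A plexins that collapses growth cones, was at 3.59, 3.65 and 3.47 CPM in shVASP libraries, against 6.07, 4.86 and 5.91 CPM in control libraries. It too was lower in every shVASP library, 1.57-fold by the fit (log2 fold change -0.65, SE 0.12, edgeR adjusted p = 0.000183; -0.78 after correction). SEMA3A lies 306.6 kb from SEMA3E on chromosome 7, and SEMA3D, another class 3 ligand 502.8 kb beyond SEMA3A, averaged 2.05 CPM in shVASP and 1.71 CPM in control libraries without passing the test (log2 fold change 0.26, edgeR adjusted p = 0.249; 0.12 after correction).

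The abundant class 3 ligands SEMA3B and SEMA3F, which are 78.5 kb apart in the tumour suppressor region of the short arm of chromosome 3, fell as well. SEMA3B was at 55.8, 56.4 and 48.6 CPM in shVASP libraries, against 81.8, 85.5 and 71.1 CPM in control libraries. The groups did not overlap, and the level was 1.48-fold lower (log2 fold change -0.57, with SE 0.07, edgeR adjusted p = 4.56e-06; -0.33 after the GC correction). SEMA3F, which acts mainly through neuropilin-2, was at 14.2, 14.2 and 12.4 CPM in shVASP libraries, against 17.96, 18.6 and 17.2 CPM in control libraries. It was 1.32-fold lower with no overlap (log2 fold change -0.40, SE 0.08, edgeR adjusted p = 0.000253; -0.22 after correction), and its exons overlap those of the antisense gene SEMA3F-AS1. SEMA3C, at 13.3 CPM in shVASP and 14.4 CPM in control libraries, did not pass the test (log2 fold change -0.12, edgeR adjusted p = 0.291) and passed it after the GC correction (-0.23, adjusted p = 0.0399). SEMA3G, at 2.28 CPM in shVASP and 1.998 CPM in control libraries, passed neither.

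Of the membrane-bound semaphorins of classes 4 to 6, 6 of 11 tested fell and none rose, beside 18.3% and 18.9% of all tested genes. After correction 3 fell and 1 rose, beside 12.1% and 17.7% of all genes. SEMA5A, an integral membrane semaphorin with thrombospondin repeats that binds plexin-B3, had the largest fall of the guidance genes tested. It was at 0.848, 1.01 and 0.681 CPM in shVASP libraries (26, 30 and 20 counts), against 2.40, 2.28 and 2.49 CPM in control libraries (70, 66 and 72 counts). Every shVASP library was under every control library by a wide margin, 2.81-fold lower by the fit (log2 fold change -1.49, SE 0.19, edgeR adjusted p = 2.32e-06; -1.504 after correction). SEMA4A, a class 4 semaphorin known from immune cells, was at 0.196, 0.440 and 0.204 CPM in shVASP libraries (6, 13 and 6 counts), against 0.685, 0.724 and 0.691 CPM in control libraries (20, 21 and 20 counts). It was 2.49-fold lower without overlap (log2 fold change -1.31, SE 0.33, edgeR adjusted p = 0.00316; -1.22 after correction), at few counts in every library, and DESeq2 gave it no adjusted p. SEMA6B, a transmembrane ligand of class A plexins, was at 43.4, 41.7 and 36.0 CPM in shVASP libraries, against 67.6, 66.2 and 56.4 CPM in control libraries. The groups lay apart, 1.57-fold lower in shVASP (log2 fold change -0.65, SE 0.07, edgeR adjusted p = 5.4e-06; -0.36 after correction).

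The calls of the smaller falls among class 4 semaphorins were lost after the GC correction. SEMA4B was at 78.1, 81.1 and 72.9 CPM in shVASP libraries, against 89.6, 89.1 and 81.6 CPM in control libraries, 1.12-fold lower (edgeR adjusted p = 0.0169). Its groups came close without overlapping, and the corrected log2 fold change was -0.011 (adjusted p = 0.879). SEMA4C was at 46.5, 41.4 and 42.5 CPM in shVASP libraries, against 48.5, 50.1 and 46.3 CPM in control libraries, 1.11-fold lower (edgeR adjusted p = 0.0402), with overlapping groups and a corrected value of -0.0058 (adjusted p = 0.944). SEMA4G was at 4.40, 4.70 and 3.78 CPM in shVASP libraries, against 6.44, 5.41 and 4.42 CPM in control libraries, 1.26-fold lower (edgeR adjusted p = 0.0493). Its groups overlapped, its exons overlap those of MRPL43, and the corrected log2 fold change was -0.23 beside -0.34 (corrected adjusted p = 0.183). SEMA4D, the ligand of plexin-B1, averaged 30.3 CPM in shVASP and 28.0 CPM in control libraries (log2 fold change 0.12, edgeR adjusted p = 0.141) and rose by 0.18 on the log2 scale after correction (adjusted p = 0.0241). SEMA4F, SEMA6A, SEMA6C and SEMA6D, between 2.21 and 16.3 CPM on average, passed the test neither before nor after correction. The calls of SEMA4B, SEMA4C and SEMA4G also rested on single libraries. SEMA4B lost its call without control library 1 or 2 or shVASP library 3 (edgeR adjusted p = 0.0702, 0.0819 and 0.132), and SEMA4C without control library 1 or 2 or shVASP library 2 or 3 (0.0843, 0.159, 0.221 and 0.134). SEMA4G lost it without any library but control library 3, with adjusted p between 0.0542 and 0.303. Its log2 fold change was -0.19 without control library 1 and -0.46 without control library 3.

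Plexins, the receptors of semaphorins, fell in 6 of 8 tested members and rose in 1, beside 18.3% and 18.9% of all tested genes. After the GC correction 4 fell and 1 rose, beside 12.1% and 17.7% of all genes. PLXNB2, a receptor of class 4 semaphorins and of angiogenin, was at 236, 241 and 218 CPM in shVASP libraries, against 338, 340.1 and 327 CPM in control libraries. The control libraries stood far above all shVASP libraries, and the level was 1.45-fold lower in shVASP (log2 fold change -0.53, SE 0.05, edgeR adjusted p = 1.92e-08; -0.34 after correction, adjusted p = 8.38e-06). PLXNB2 lies on chr22:50274979-50307646, minus strand, in GRCh38. Its share of plexin RNA was 50.8% in shVASP and 55.9% in control libraries.

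PLXNA1, a class A plexin that pairs with neuropilins, was at 129, 123 and 111 CPM in shVASP libraries, against 166, 152 and 145 CPM in control libraries. It was 1.27-fold lower without overlap (log2 fold change -0.35, SE 0.06, edgeR adjusted p = 6.66e-05; -0.18 after correction, adjusted p = 0.00881). PLXNB1, the receptor of SEMA4D, was at 23.2, 21.9 and 20.9 CPM in shVASP libraries, against 26.5, 29.9 and 27.0 CPM in control libraries, 1.26-fold lower (log2 fold change -0.34, edgeR adjusted p = 0.000359; -0.16 after correction, adjusted p = 0.0475). PLXNA3, a further class A plexin, was at 51.6, 51.3 and 48.7 CPM in shVASP libraries, against 57.6, 63.2 and 59.6 CPM in control libraries, 1.19-fold lower (log2 fold change -0.25, edgeR adjusted p = 0.000735; -0.15 after correction, adjusted p = 0.0292). In each of these receptors all shVASP libraries were below all control libraries. The exons of PLXNA3 overlap those of LAGE3.

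PLXNB3, the receptor of SEMA5A, and PLXND1, the receptor of SEMA3E, passed the test only before the correction. PLXNB3 was at 6.62, 5.62 and 5.45 CPM in shVASP libraries, against 8.60, 8.76 and 7.36 CPM in control libraries, 1.40-fold lower by the fit (log2 fold change -0.48, SE 0.11, edgeR adjusted p = 0.000934; -0.25 after correction, adjusted p = 0.0538). PLXND1 was at 70.2, 68.4 and 62.7 CPM in shVASP libraries, against 87.3, 79.6 and 73.2 CPM in control libraries, 1.19-fold lower (log2 fold change -0.25, edgeR adjusted p = 0.00212; -0.054 after correction, adjusted p = 0.476). Neither pair of groups overlapped. PLXNA2, a receptor of class 6 semaphorins, was the plexin that rose, with 72.0, 66.7 and 75.3 CPM in shVASP libraries, against 55.9, 57.8 and 70.8 CPM in control libraries. Its groups overlapped through the highest control library, and the rise of 1.16-fold sat at the threshold (log2 fold change 0.21, SE 0.08, edgeR adjusted p = 0.0487; 0.29 after correction, adjusted p = 0.0451), with an adjusted p of 0.0675 under upper-quartile scaling. Leaving out control library 1 or 2, or shVASP library 1 or 3, also ended the call (adjusted p = 0.138, 0.186, 0.116 and 0.113). Without control library 3, the highest control, the log2 fold change was 0.33 (adjusted p = 4.1e-05). PLXNC1, the receptor of SEMA7A, was at 3.65 CPM in shVASP and 3.36 CPM in control libraries and did not pass the test. SEMA7A itself had at most 1 count in any library.

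**Figure D4:**
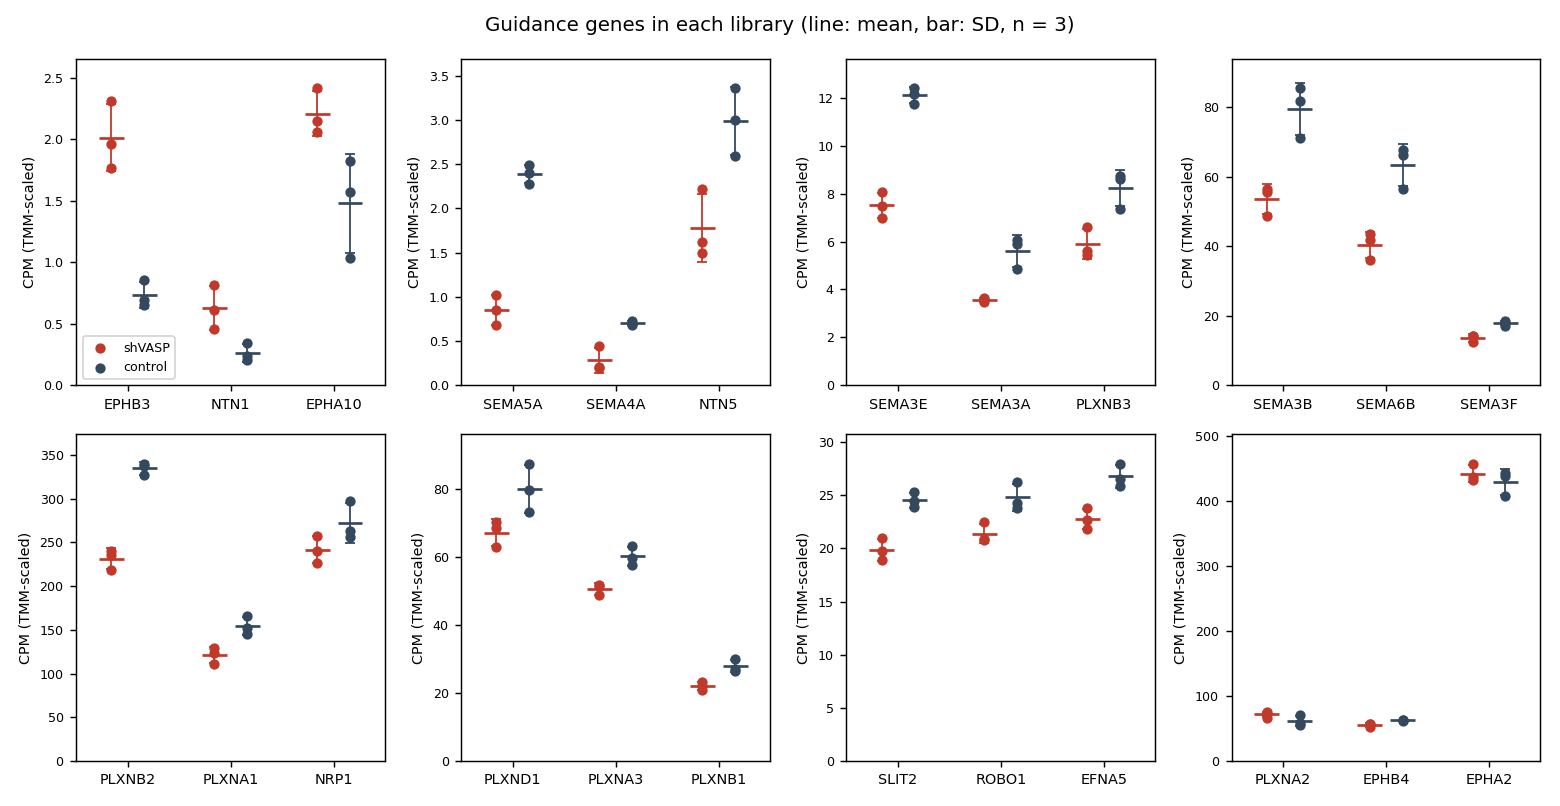
CPM of selected semaphorins, plexins and other guidance genes (y axes from 0) in each of the 3 shVASP and 3 control libraries, with lines for the mean and bars for the SD of each group. The shVASP points of SEMA5A, SEMA3E and PLXNB2 lie below all control points, and those of EPHB3 above them.

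Of the neuropilins, the co-receptors of class 3 semaphorins and of vascular endothelial growth factor, NRP1 was at 258, 241 and 227 CPM in shVASP libraries, against 298, 263 and 256 CPM in control libraries. The groups overlapped slightly, and the level was 1.13-fold lower (log2 fold change -0.17, with SE 0.06, edgeR adjusted p = 0.0239; -0.20 after correction, adjusted p = 0.00868). The call was lost without control library 1 (log2 fold change -0.10, adjusted p = 0.177), shVASP library 2 (-0.16, adjusted p = 0.0931) or shVASP library 3 (-0.13, adjusted p = 0.136). NRP2 was at 6.91 CPM in shVASP and 6.82 CPM in control libraries (log2 fold change 0.02, edgeR adjusted p = 0.902).

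Eph receptors held the largest rise among guidance genes, and their abundant members moved little. EPHB3, a receptor of B-class ephrins known from the intestinal crypt, lies at GRCh38 chr3:184561785-184582408 on the plus strand. It was at 2.31, 1.96 and 1.77 CPM in shVASP libraries (71, 58 and 52 counts), against 0.857, 0.690 and 0.657 CPM in control libraries (25, 20 and 19 counts). All shVASP libraries were above all control libraries, 2.74-fold by the fit (log2 fold change 1.45, SE 0.21, edgeR adjusted p = 8.53e-06; 1.63 after correction). EPHA10, a receptor regarded as lacking kinase activity, was at 2.15, 2.06 and 2.42 CPM in shVASP libraries, against 1.58, 1.83 and 1.04 CPM in control libraries. It was 1.49-fold higher without overlap (log2 fold change 0.58, SE 0.19, edgeR adjusted p = 0.0186; 0.82 after correction, adjusted p = 0.00206), and without control library 3, the lowest, the log2 fold change was 0.38 (adjusted p = 0.115). Without shVASP library 3 it was 0.51 (adjusted p = 0.0649), and DESeq2 gave an adjusted p of 0.0679.

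EPHA2, which dominates the family, was at 457, 437 and 431 CPM in shVASP libraries, against 407, 438 and 443 CPM in control libraries. The groups overlapped (log2 fold change 0.04, SE 0.05, edgeR adjusted p = 0.552), whereas after the GC correction EPHA2 rose by 0.18 on the log2 scale (adjusted p = 0.00646), so its call rests on the correction. EPHB4 was at 57.4, 56.6 and 52.4 CPM in shVASP libraries, against 62.7, 63.4 and 61.4 CPM in control libraries, 1.13-fold lower (log2 fold change -0.17, edgeR adjusted p = 0.0122). That fall was absent after the correction (log2 fold change 0.0051, adjusted p = 0.946), the call was also lost without shVASP library 3 (-0.13, adjusted p = 0.108), and the exons of EPHB4 overlap those of SLC12A9. EPHA4, EPHA6, EPHA7, EPHB1 and EPHB2 averaged between 0.328 and 24.0 CPM and passed the test neither before nor after the correction.

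All 8 ephrins were tested, and 2 A-class ligands fell (25.0%, against 18.3% of all tested genes) while none rose (against 18.9%). After the GC correction 1 fell (12.5%, against 12.1% of all genes) and 1 rose (12.5%, against 17.7%). EFNA5 was at 22.7, 21.9 and 23.8 CPM in shVASP libraries, against 25.8, 28.0 and 26.5 CPM in control libraries. The groups lay apart, 1.18-fold lower in shVASP (log2 fold change -0.23, edgeR adjusted p = 0.0056; -0.30 after it, adjusted p = 0.000936). EFNA3 was at 3.75, 3.69 and 3.92 CPM in shVASP libraries, against 5.04, 4.76 and 4.39 CPM in control libraries, 1.25-fold lower (log2 fold change -0.32, edgeR adjusted p = 0.0355; -0.15 after correction, adjusted p = 0.363). Its groups did not overlap, but the call was lost without any library except control library 3 (adjusted p between 0.063 and 0.117) and with DESeq2 (0.141). EFNA3 lies between EFNA4, 9.28 kb away, and EFNA1, 40.3 kb away on chromosome 1. EFNA1, the main ligand of EPHA2, was at 16.1 CPM in shVASP and 18.1 CPM in control libraries (log2 fold change -0.17, edgeR adjusted p = 0.113; -0.043 after correction), and EFNA4 at 8.44 CPM in shVASP and 8.09 CPM in control libraries. EFNB1, the ephrin with the most RNA per length, averaged 45.8 CPM in shVASP and 44.2 CPM in control libraries (edgeR adjusted p = 0.481) and rose by 0.20 on the log2 scale after correction (adjusted p = 0.00506). EFNB2, the ligand of EPHB4, was at 16.1 CPM in shVASP and 15.6 CPM in control libraries, and EFNA2 and EFNB3 were under 2.2 CPM in every library; none of these passed the test.

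SLIT2 and ROBO1, a secreted ligand and its receptor, were both lower. SLIT2 was at 21.0, 18.9 and 19.8 CPM in shVASP libraries, against 25.3, 23.9 and 24.4 CPM in control libraries, 1.23-fold lower by the fit (log2 fold change -0.30, SE 0.07, edgeR adjusted p = 0.000887; -0.30 after correction). ROBO1 was at 22.5, 20.9 and 20.8 CPM in shVASP libraries, against 26.3, 24.3 and 23.8 CPM in control libraries, 1.16-fold lower by the fit (log2 fold change -0.21, SE 0.07, edgeR adjusted p = 0.0141; -0.25 after correction, adjusted p = 0.00489). Neither pair of groups overlapped. The ROBO1 call was lost without control library 1, shVASP library 2 or shVASP library 3 (edgeR adjusted p = 0.076, 0.0691 and 0.0577). ROBO3 and ROBO4, 2.22 kb apart on chromosome 11, did not pass the test: ROBO3 was at 22.4 CPM in both groups (edgeR adjusted p = 0.993, and a corrected log2 fold change of 0.19 with adjusted p = 0.0294), and ROBO4 at 32.7 CPM in shVASP and 34.6 CPM in control libraries (adjusted p = 0.322). ROBO2 was at 0.358 CPM in shVASP and 0.551 CPM in control libraries (log2 fold change -0.62, SE 0.33, edgeR adjusted p = 0.143; -0.64 after correction), and SLIT1 at 0.337 CPM in shVASP and 0.390 CPM in control libraries.

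Netrins moved in opposite directions at low levels. NTN1, the founding diffusible netrin, lies at GRCh38 chr17:9021510-9244000 on the plus strand and was at 0.456, 0.609 and 0.817 CPM in shVASP libraries (14, 18 and 24 counts), against 0.206, 0.241 and 0.346 CPM in control libraries (6, 7 and 10 counts). Every shVASP library was higher, 2.35-fold by the fit (log2 fold change 1.23, SE 0.35, edgeR adjusted p = 0.00732; 1.40 after correction), but the call was lost without shVASP library 3 (log2 fold change 1.00, adjusted p = 0.0567), and DESeq2 gave it no adjusted p. NTN5 was at 2.22, 1.62 and 1.498 CPM in shVASP libraries, against 3.36, 3.0 and 2.59 CPM in control libraries. It was 1.67-fold lower with no overlap (log2 fold change -0.74, SE 0.17, edgeR adjusted p = 0.00139; -0.46 after correction, adjusted p = 0.0428), and its exons overlap those of SEC1P. NTN4, the basement membrane netrin and the abundant one here, was at 21.0, 20.9 and 16.7 CPM in shVASP libraries, against 26.6, 22.2 and 19.7 CPM in control libraries, and its groups overlapped (log2 fold change -0.23, SE 0.11, edgeR adjusted p = 0.1404; -0.21 after correction). Of the netrin receptors, UNC5A, UNC5B, UNC5C and UNC5D had too few counts to be tested, as had DCC at 0.0787 CPM in shVASP and 0.0918 CPM in control libraries. Neogenin (NEO1) was the netrin receptor with clear expression, at 110.7 CPM in shVASP and 106.2 CPM in control libraries (log2 fold change 0.06, edgeR adjusted p = 0.349).

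The other members not tested were EPHA1, EPHA3, EPHA5, EPHA8, EPHB6, SEMA5B, SEMA7A, PLXNA4, SLIT3 and NTN3. EPHA8, EPHA1 and EPHB6 had 0 counts in every library, where a count of 0 allows up to 0.0978 to 0.104 CPM, depending on the library. The counts for EPHA1, EPHB6 and SEMA7A may not measure their expression, because each also lies on an alternate or patch sequence of the annotation. Of 1321 coding symbols placed both on a chromosome and on such a sequence, 866 (65.6%) had at most 1 count in all, against 3474 of 19007 others (18.3%). NTN3 had 2, 2 and 0 counts in shVASP libraries, against 6, 6 and 9 counts in control libraries, too few for the filter. Of the genes tested and called, SEMA5A, SEMA3B, PLXNB3, EFNA3 and NRP1 also have exons that overlap another annotated gene.

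**Figure D5:**
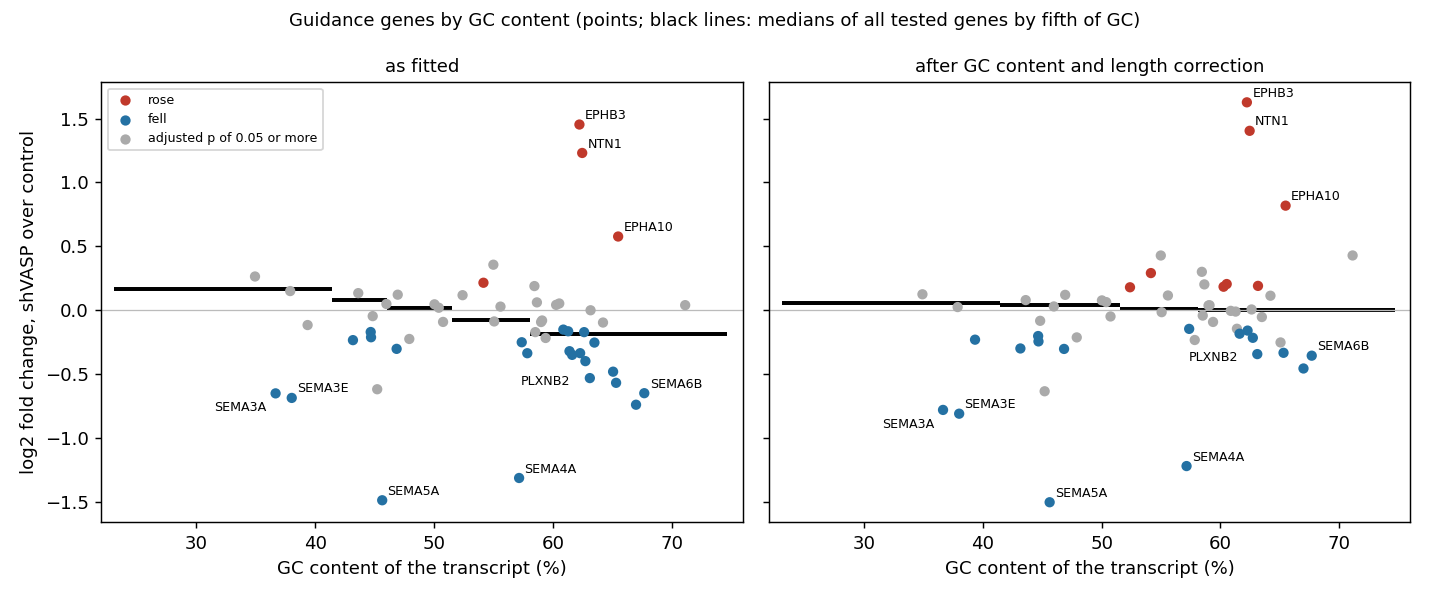
Log2 fold change of shVASP over control (y axis) against transcript GC content in percent (x axis) for the tested guidance genes, as fitted (left) and after GC content and length correction (right); black lines are medians of all tested genes in quintiles of GC content. SEMA3A and SEMA3E, at 36.7% and 38.0% GC, lie far below the line of their quintile in both panels, while PLXNB2 and SEMA6B move closer to 0 on the right.

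Guidance genes lay differently against the GC trend. SEMA3A and SEMA3E fell although genes of like GC content had a median log2 fold change of 0.16, and the correction made both falls larger. SEMA3D, at 34.9% GC, lay with the trend, with a log2 fold change of 0.26 as fitted and 0.12 after correction, and passed the test in neither. For SEMA5A, at 45.6% GC, it made little difference. For PLXNB2, SEMA6B and SEMA3B, between 63.1% and 67.7% GC, it left smaller falls that still passed the test. The part of the GC trend in the changes of single genes was not tested.

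Of the guidance genes, 4 hold the word GTCGTC in the 3' UTR of the transcript searched, that with the longest coding sequence of its gene. The word was looked at because in these same data genes that hold it fell more often. Of 596 tested genes with it there, 42.3% fell and 10.9% rose (median log2 fold change -0.14), against 19.3% that fell and 24.0% that rose among 12185 without it (median 0.016). Because the word was taken from these data, this contrast is no test of it. The shares are from the fit before the GC correction, and GC content and 3' UTR length were not matched. Each 30-base stretch of the 3' UTR is printed 5′ to 3′ with the word in capitals, from GENCODE release 29 on GRCh38: PLXNA2 (chr1:208027024-208027053, minus strand), SLIT1 (chr10:96998161-96998190, minus strand), SEMA4B (chr15:90229186-90229215, plus strand) and NTN1 (chr17:9242722-9242751, plus strand).
PLXNA2: gagacagtgggcGTCGTCcatcctcagtga
SLIT1: ggggtttctgtaGTCGTCttgtttggatca
SEMA4B: gttgttgctgccGTCGTCccaccacctcag
NTN1: tgggattgcacgGTCGTCacgagctgcctt
PLXNA2 and NTN1 rose, SEMA4B fell, and SLIT1 did not pass the test (log2 fold change -0.22, edgeR adjusted p = 0.704). The genes that fell more than 1.5-fold, SEMA5A, SEMA4A, NTN5, SEMA3E, SEMA3A and SEMA6B, lack the word in the transcript searched. Other transcripts were not searched, and that of SEMA3B has no 3' UTR. Whether the word bears on any change was not tested.

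Beyond ligands and receptors, 79 co-receptors and cytoplasmic partners of guidance signalling were followed, of which 65 were tested. Of these 13 rose (20.0%) and 17 fell (26.2%), beside 18.9% that rose and 18.3% that fell among all tested genes, with a median log2 fold change of -0.0058. After correction 13 rose (20.0%) and 14 fell (21.5%), beside 17.7% and 12.1% of all genes, with a median of 0.025. Of the 30 called before correction, 18 have exons that overlap another annotated gene, L1CAM, RASA1 and MICAL2 among those named below. L1CAM, an adhesion molecule that forms a complex with neuropilin-1, had 17.7, 15.7 and 15.8 CPM in shVASP libraries, against 7.88, 7.14 and 5.60 CPM in control libraries. The groups were far apart, 2.38-fold higher in shVASP (log2 fold change 1.25, SE 0.10, edgeR adjusted p = 2.7e-09; 1.39 after correction). MET, a receptor kinase with a semaphorin domain that associates with class B plexins, was at 222, 221 and 218 CPM in shVASP libraries, against 181, 157 and 170.2 CPM in control libraries, 1.30-fold higher without overlap (log2 fold change 0.38, edgeR adjusted p = 4.68e-06; 0.34 after correction). The kinase ABL2 (log2 fold change 0.29, and 0.28 after correction), the Ras GTPase activator RASA1 (0.32 and 0.32), the Ras exchange factor SOS1 (0.31 and 0.19) and the syndecan and ephrin-B binder SDCBP (0.21 and 0.099) completed the 6 with the smallest p among those that rose, and SDCBP did not pass after correction (adjusted p = 0.116).

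Among partners that fell, VAV2, an exchange factor recruited by Eph receptors, was at 31.8, 31.4 and 29.3 CPM in shVASP libraries, against 43.6, 45.7 and 47.7 CPM in control libraries. It was 1.48-fold lower with well separated groups (log2 fold change -0.57, SE 0.06, edgeR adjusted p = 9.44e-08; -0.48 after correction). ARHGEF12, bound by class B plexins, was at 287, 277 and 285 CPM in shVASP libraries, against 396, 360.2 and 386 CPM in control libraries, 1.35-fold lower (log2 fold change -0.43, edgeR adjusted p = 4.66e-07; -0.49 after correction). GIPC1, an adaptor of neuropilin-1 and plexins (log2 fold change -0.36, and -0.13 after correction), GPC1, a glypican that binds SLIT (-0.41 and -0.15), the kinase ABL1 (-0.28 and -0.19) and the actin oxidising enzyme MICAL2 (-0.30 and -0.22) completed the 6, and GPC1 did not pass after correction (adjusted p = 0.0564). The other Ena/VASP proteins did not pass the test: ENAH was at 104.6 CPM in shVASP and 102.2 CPM in control libraries (edgeR adjusted p = 0.624), and EVL at 18.1 CPM in both groups (adjusted p = 0.978).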

How the data were processed

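The authors deposited 1 table of raw fragment counts for each gene symbol, with the merged exon length of each symbol. Per the file headers, featureCounts 1.6.4 counted read pairs on GENCODE release 32, patches included, with no strand or multi-mapping option set, so at the defaults strand was ignored and fragments shared between genes were not counted. This lowers genes that overlap others or have near-identical copies: 10 of the 27 guidance genes called and 18 of the 30 signalling genes called have exons that overlap another gene. Trim Galore 0.6.4, STAR 2.7.1a and build hg38 are named per the submitters' processing notes.

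All control columns have headers that add a number to the title of 1 control sample, so they may be repeats of 1 culture, and control libraries are numbered in table order as names only. From the counts, 16633 genes kept by filterByExpr were scaled by TMM and tested in 3 shVASP against 3 control libraries with edgeR 4.0.16 (two-sided robust quasi-likelihood test, Benjamini-Hochberg adjustment over all genes tested, R 4.3.3); the biological coefficient of variation was 4.81%. CPM are TMM-scaled; RPKM divide them by merged exon length. The SE is the log2 fold change over the square root of F. GC content, available for 98.4% of tested genes, and 3' UTRs came from GENCODE release 29, from the transcript of each gene with the longest coding sequence. The correction removes splines with 5 degrees of freedom in GC content and in merged exon length from each library. The test was run on simulated data with known changes before use. Alternatives were other scalings, DESeq2 1.42.0, other filters, the GC correction, a null of 1.2-fold and leaving out each library. Members and lists were chosen with earlier results of these data known. Every guidance gene past the threshold is named, with values per library where the absolute log2 fold change is at least 0.3 or the mean at least 10 CPM, and of the signalling list the 6 with the smallest p in each direction. Floors cover counting error only.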

Additional observations from a re-analysis of the deposited data

How the results depend on the processing

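Over the alternatives, 133 values held and 8 moved, where a count held within 1.5 times the reported one, a family sum's log2 ratio within 1 SD and VASP in direction and call; of the log2 fold changes of named genes, 427 kept direction and call, 75 kept the direction and lost the call, and 1 reversed. The 4 guidance genes that rose became 2 with DESeq2, 8 after the GC correction and 1 against a null of 1.2-fold, and 1 to 4 with a library left out, the lowest without shVASP library 3, where EPHA10, PLXNA2 and NTN1 lost the call. The 23 that fell became 8 against the null of 1.2-fold and 16 to 25 with a library left out. Against that null 953 of all tested genes changed in place of 6187 (4481 to 6399 with a library left out), and 1 signalling gene rose and 2 fell in place of 13 and 17 (10 to 13 and 14 to 17 with a library left out). Of the 27 guidance calls, 26 were shared with DESeq2 size factors, 26 with upper-quartile scaling, 21 with DESeq2 (which gave no adjusted p for SEMA4A and NTN1), 24 without the low-count filter (where NTN3 and NTN4 were added), 25 with a filter of 1 CPM (which left SEMA4A and NTN1 untested), 20 after the GC correction, 9 against the null of 1.2-fold and 17 to 26 with a library left out, fewest without shVASP library 3. With a library left out the Eph receptor sum's log2 ratio of 0.027 lay between -0.0063 and 0.046 and that of the UNC5 receptors, 0.13, between -0.082 and 0.26, so neither has a stable sign. EPHB4 reversed to 0.0051 on the log2 scale after the GC correction (adjusted p = 0.946); the cause was not tested. SEMA4G, EFNA3 and SEMA4C were the calls lost most often, under 9, 8 and 7 settings besides the null of 1.2-fold. The median log2 fold change of all genes moved by less than 0.1 under every scaling. Depth limits SEMA4A and NTN1, which rest on 6 to 24 counts per library. No paired analysis was possible because the control columns carry no replicate number of the labels.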
